A study of Mus musculus with 12 samples.

Results

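The 10 genes described here encode chains of receptors for cytokines and interferons, and each was followed through every ATAC-seq peak assigned to it in brain macrophages of bone marrow (BM) chimeric mice. They are Il10ra, Il6ra, Il4ra, Il13ra1, Il17ra, Il21r, Il1r2, Ifngr1, Ifnar1 and Tnfrsf1b. A peak was a member if the authors' annotation, which gives each peak the gene with the nearest transcription start site, named 1 of these genes. That rule used no measured value and took 97 of the 60288 peaks of untreated mice and 87 of the 54953 peaks of LPS-treated mice. Of the 97 untreated peaks, 9 were annotated as promoter-TSS, 35 as intronic and 53 as intergenic. Of the 87 LPS peaks, 9 were promoter-TSS, 33 intronic and 44 intergenic, and 1 was of another class.

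ATAC-seq maps open chromatin through the DNA that a transposase can reach. Wild-type C57BL/6J mice had been irradiated with 950 cGy and given donor BM. They were kept for 9 months after the transplant, although the labels also name 3.5 months without saying for which mice. Mice 4, 5 and 6 were untreated, and mice 1, 2 and 3 were given the endotoxin lipopolysaccharide (LPS) at 2.5 mg/kg and killed 12 h afterwards. From every brain, CD45.1 cells, which stem from the graft, and CD45.2 cells, which are the microglia of the irradiated host, were sorted, for 4 groups of 3 libraries. All CD45.2 cells had thus been irradiated in place, whereas CD45.1 cells entered afterwards. Per the study's methods the gate was Ly6C/G-negative, CD11b-positive and CD45-low, and it does not separate microglia from other brain macrophages that share these markers.

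Cytokine receptors are built from several chains. IL-10, IL-6, IL-4, IL-13, IL-21 and the interferons bind chains that carry or recruit JAK kinases, which phosphorylate STAT factors. IL-17, IL-1 and TNF act through other receptor families, whose adaptors lead to NF-kappaB and MAP kinases. In microglia and macrophages, IL-10, IL-4 and IL-13 are known to restrain or redirect activation, whereas interferon gamma, IL-1 and TNF promote it. An open region near such a gene is a candidate regulatory element, but accessibility is neither transcript nor receptor protein.

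The depth differed between treatments. Untreated libraries held 8392878 to 9107770 tags and LPS libraries 2966364 to 6556595. The library of CD45.2 cells from untreated mouse 4 stood apart, with 18.4% of its tags in the merged peaks against 29.7 to 39.0% in the other untreated libraries, and values without it are given below. Among markers of the cells the gate could hold, Sall1, which encodes a transcription factor of microglia, had 23.2 to 187 normalized tags in untreated CD45.1 libraries and 988 to 1115 in CD45.2 libraries. Summed over 8 microglia markers, Sall1 among them, untreated CD45.1 libraries had 1920 to 2551 tags and CD45.2 libraries 3336 to 3568. Of these 8 markers, 2 were called higher in CD45.2 and 0 in CD45.1. Their median log2 fold difference, CD45.1 over CD45.2, was -0.21. Of 4 perivascular macrophage markers 3 were tested, with sums of 349 to 390 and 228 to 276. Of 6 monocyte markers 4 were tested, with sums of 462 to 618 and 333 to 437. Of 4 endothelial markers 3 were tested, with sums of 325 to 432 and 693 to 727. Of 8 T and NK cell markers 6 were tested, with sums of 885 to 971 and 983 to 1298 and 2 called in each direction. Of 6 B cell markers 3 were tested, with sums of 165 to 187 and 123 to 143, and Cd3e, Cd3g, Cd79a and Pax5 had no peak. The part of these shifts in the receptor peaks was not tested. In bulk libraries, fewer cells with an open region and less opening per cell cannot be told apart.

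Promoters of 9 of the 10 genes were open in both populations. Il13ra1, the chain that pairs with IL-4Rα to bind IL-13, had no promoter-TSS peak in either table, and its peak nearest to the start site lay 3.3 kb upstream in untreated mice and 3.2 kb downstream after LPS. Levels were compared between genes only as normalized tags per 100 bases of peak. On that scale the untreated promoters of Ifnar1 and Ifngr1, which encode chains of the receptors for type I and type II interferon, were the highest, with medians over the 6 libraries of 145 and 140. Their ranges overlapped each other and lay above all others. Then came Il6ra (81.3), Il4ra (68.9), Il10ra (62.2), Tnfrsf1b (61.7), Il21r (55.3) and Il17ra (36.2), of which no neighbours in that order were separated. Il1r2, which encodes a decoy receptor that binds IL-1 without signalling, was the lowest, at 20.0, with a range below that of Il17ra. In the LPS libraries Ifngr1 (53.9) and Ifnar1 (47.3) were again above the other 7, and Il1r2 (8.90) was again at the bottom, where its range overlapped that of Il21r (9.93).

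None of these promoters passed the test between CD45.1 and CD45.2 cells. The log2 fold differences, CD45.1 over CD45.2, lay between -0.29 and 0.29 in untreated mice (smallest adjusted p = 0.39) and between -0.34 and 0.89 after LPS (smallest adjusted p = 0.49). The median over the 9 promoters was 0.16 in untreated mice, beside 0.05 over all promoter-TSS peaks. After LPS it was -0.20, beside -0.04.

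Away from the promoters, single distal peaks of Ifngr1, Il4ra and Il13ra1 were more open in graft-derived cells. By the study's rule (p under 0.01, taken here as the adjusted p, and over 4-fold), 3 of the 96 member peaks tested in untreated mice were higher in CD45.1 and 0 higher in CD45.2, where 3.78% and 2.65% of all 59170 peaks were called. edgeR's quasi-likelihood test called 4 and 1, beside 2482 and 1800 of all 59170 peaks. By the looser rule (adjusted p under 0.05 alone), 6 member peaks were higher in CD45.1 and 4 in CD45.2, beside 8.54% and 6.32% of all peaks. At an unadjusted p under 0.05 there were 24 with DESeq2 and 32 with edgeR. The share of all peaks at that limit is not given, so these counts are not read as an excess. The median log2 fold difference over the 96 peaks was 0.10, with 58.3% above 0, beside 0.00 for all peaks, and 76 of the 96 differed by less than 2-fold. The values of the populations did not overlap in 35 peaks (CD45.1 above in 21, CD45.2 above in 14), where 35.4% of all peaks did not overlap.

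**Figure D1:**
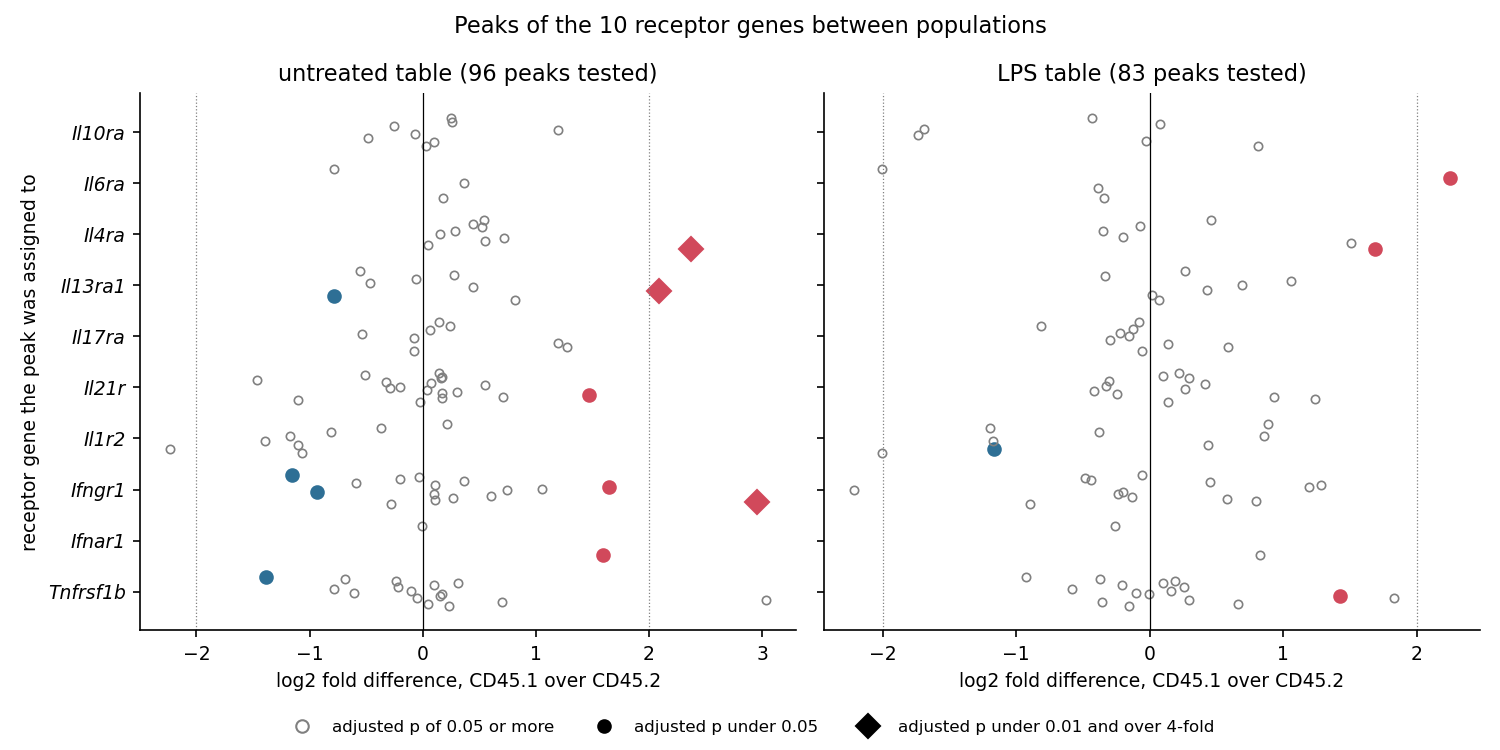
Log2 fold difference between CD45.1 and CD45.2 cells (x axis) for every tested peak of the 10 receptor genes (rows), in untreated mice (left) and after LPS (right). Open circles are peaks with an adjusted p of 0.05 or more, filled circles passed 0.05 and diamonds the study's rule (red, higher in CD45.1; blue, higher in CD45.2); dotted lines mark 4-fold. Most peaks sit near 0, and the 3 diamonds, of Ifngr1, Il4ra and Il13ra1, are all in untreated mice.

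The 3 sequences called in untreated mice are shown because they carry the largest graft-over-host differences among the tested members that passed the rule. They were read from the plus strand of mm9, and capitals mark a match to the motif searched for RUNX factors (TGTGGTT on either strand). The Ifngr1 peak lay at chr10:19225912-19226016, the Il4ra peak at chr7:132684417-132684575 and the Il13ra1 peak at chrX:33640983-33641087, all in intergenic DNA. The latter 2 held none of the 7 motifs searched.
Ifngr1, 85.8 kb upstream: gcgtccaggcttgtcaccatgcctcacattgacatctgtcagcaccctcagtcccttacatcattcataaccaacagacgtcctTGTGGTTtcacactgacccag
Il4ra, 11.3 kb upstream: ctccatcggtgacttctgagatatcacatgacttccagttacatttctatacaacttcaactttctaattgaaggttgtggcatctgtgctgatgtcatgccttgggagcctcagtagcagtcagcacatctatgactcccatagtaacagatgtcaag
Il13ra1, 11.1 kb upstream: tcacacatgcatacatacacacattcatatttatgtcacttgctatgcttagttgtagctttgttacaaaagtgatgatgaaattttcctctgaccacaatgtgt

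Ifngr1 encodes the ligand-binding chain of the receptor for interferon gamma. Its peak 85.8 kb upstream had 20.5, 18.3 and 43.6 normalized tags in CD45.1 cells of mice 4, 5 and 6, and 3.28, 3.10 and 4.06 in CD45.2 cells of the same mice. The host libraries were at a few tags each and did not overlap with the graft. The log2 fold difference was 2.96 ± 0.63 (SE; adjusted p = 6.04e-05), and the call by adjusted p of 0.05 held in every alternative that could test it, with an adjusted p of at most 0.0071 when any 1 library was left out.

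Il4ra encodes the chain shared by the receptors for IL-4 and IL-13. Its peak 11.3 kb upstream had 29.9, 17.3 and 26.1 tags in CD45.1 cells and 3.28, 2.32 and 8.12 in CD45.2 cells. Again the populations were apart, by 2.37 ± 0.59 on the log2 scale (adjusted p = 0.00086). The adjusted p rose to 0.031 without CD45.1 mouse 4 and 0.044 without CD45.2 mouse 5, which ends the call by the study's rule.

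The peak 11.1 kb upstream of Il13ra1 had 14.9, 16.4 and 31.6 tags in CD45.1 cells and 6.55, 4.64 and 4.06 in CD45.2 cells. The ranges did not overlap, and the log2 fold difference was 2.09 ± 0.60 (adjusted p = 0.0051). With mouse as a block the adjusted p was 0.044. It was 0.10 without CD45.1 mouse 6, 0.066 without CD45.2 mouse 5 and 0.070 without CD45.2 mouse 6. Without CD45.1 mouse 4 and without CD45.1 mouse 5 it was 0.014 and 0.015, also above the study's threshold.

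Peaks that passed the looser rule alone are named after their values were seen. Ifngr1 had a second graft-higher peak 32.0 kb upstream, with 42.9, 43.8 and 52.3 tags in CD45.1 and 11.5, 10.8 and 21.1 in CD45.2 cells (1.64 ± 0.37, adjusted p = 0.00024). These groups were apart, and leaving out any library kept the adjusted p at 0.022 or lower. The peak 9.2 kb upstream of Ifnar1 had 22.4, 18.3 and 21.8 tags against 9.83, 6.97 and 4.87 (adjusted p = 0.022), and a peak 9.4 kb upstream of Il21r, the IL-21-binding chain, had a log2 fold difference of 1.47 (adjusted p = 0.047) with overlapping groups.

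In the other direction, an intronic peak of Tnfrsf1b, 24.7 kb downstream of the start site, was more open in host microglia. Tnfrsf1b encodes TNF receptor 2. The peak, at chr4:144812006-144812239 in intron 8, had 26.1, 23.7 and 15.3 tags in CD45.1 cells and 59.0, 59.6 and 53.6 in CD45.2 cells. All host values were more than 2-fold above the highest graft value, and the log2 fold difference was -1.39 ± 0.32 (adjusted p = 0.00025), with at most 0.013 when any library was left out. Its sequence is given because it also opened after LPS (below), with capitals at matches for AP-1 (TGANTCA) and PU.1 (GAGGAAG, here on the minus strand).
Tnfrsf1b, 24.7 kb downstream: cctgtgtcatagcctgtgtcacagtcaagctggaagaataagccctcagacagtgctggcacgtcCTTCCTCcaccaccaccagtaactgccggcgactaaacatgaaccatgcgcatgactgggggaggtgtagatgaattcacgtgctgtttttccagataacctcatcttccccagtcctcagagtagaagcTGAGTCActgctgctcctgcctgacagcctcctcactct

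Also higher in CD45.2 cells were 2 Ifngr1 peaks, 43.7 kb upstream (-0.93, adjusted p = 0.021) and 4.9 kb downstream (-1.16, adjusted p = 0.029), and an Il13ra1 peak 23.4 kb upstream (-0.79, adjusted p = 0.0499). Ifngr1 and Il13ra1 thus each held peaks that differed in opposite directions. With mouse as a block, 5 peaks passed the looser rule with CD45.1 higher and 1 with CD45.2 higher, and the peaks of Ifnar1, Il21r, Ifngr1 at 43.7 kb upstream and 4.9 kb downstream, and Il13ra1 at 23.4 kb upstream had adjusted p of 0.11, 0.16, 0.12, 0.10 and 0.20. The 5 thus included a peak that was not called without the block. Without the CD45.2 library of mouse 4, 3 peaks passed the study's rule, and 6 and 3 passed the looser rule. The Il21r peak and those of Ifngr1 4.9 kb downstream and Il13ra1 23.4 kb upstream then had adjusted p of 0.060, 0.10 and 0.061.

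Of the other untreated libraries left out in turn, the count by the study's rule was 1 without CD45.1 mouse 4 and 1 without CD45.2 mouse 5. The count past the looser rule and higher in CD45.1 was 3 without CD45.2 mouse 5, without CD45.1 mouse 6 or without CD45.2 mouse 6. That higher in CD45.2 was 1 without CD45.1 mouse 4, without CD45.2 mouse 5 or without CD45.2 mouse 6, and 2 without CD45.1 mouse 6.

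**Figure D2:**
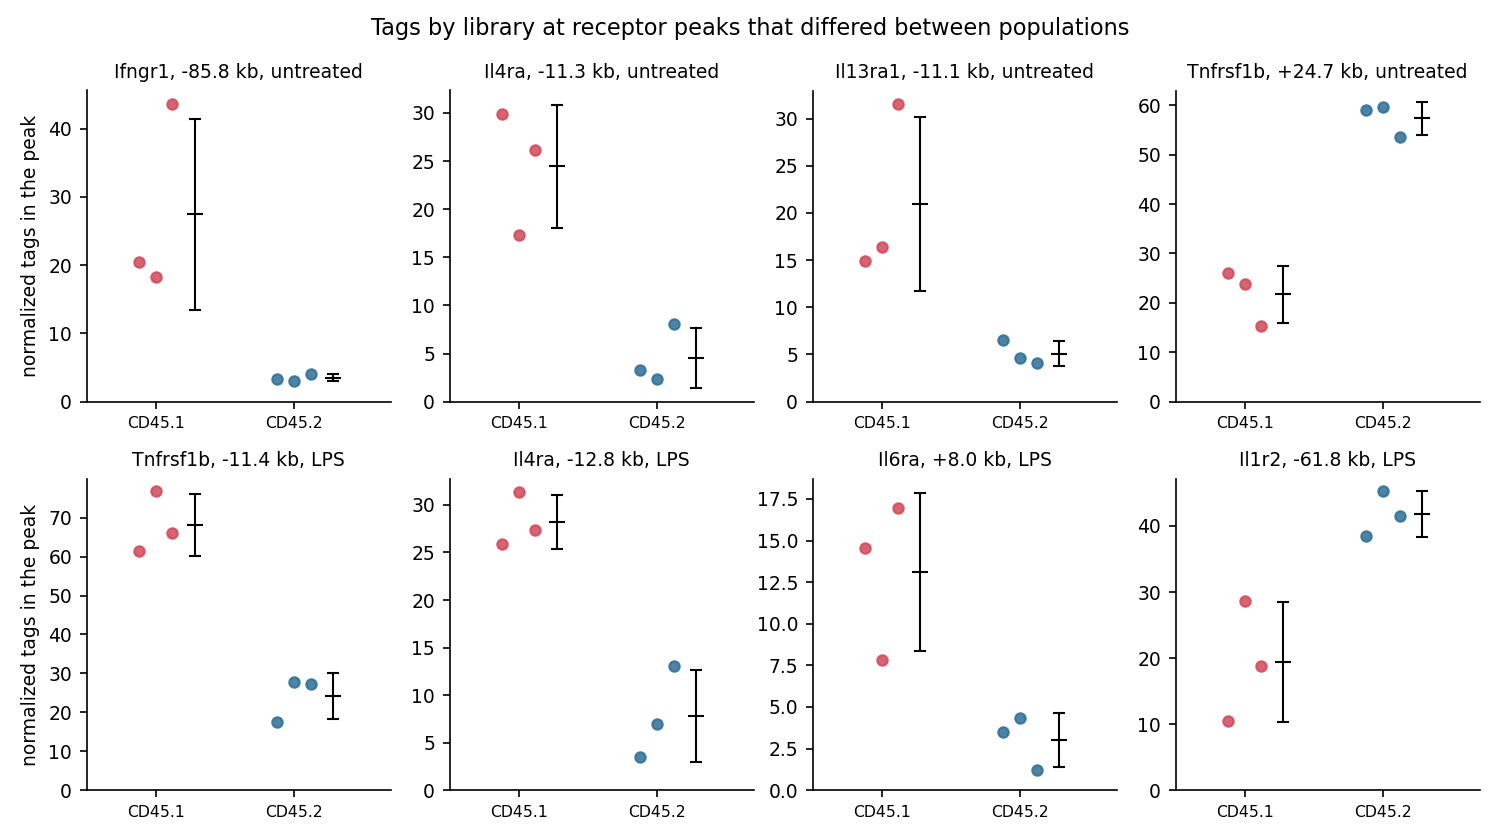
Normalized tags (y axis, from 0) in each library (points) of CD45.1 (red) and CD45.2 (blue) cells at 8 receptor peaks, 4 in untreated mice (top) and 4 after LPS (bottom), with mean and SD of 3 libraries as black bars. In all 8 panels the points of the 2 populations do not overlap; Tnfrsf1b at +24.7 kb and Il1r2 at -61.8 kb are higher in CD45.2 cells, the others in CD45.1 cells.

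When all tags of a gene were summed, Il4ra and Il1r2 differed between the populations of untreated mice. The sum over the 9 Il4ra peaks was 441, 445 and 441 in CD45.1 and 308, 344 and 332 in CD45.2 cells. Every graft value was above every host value, by 0.43 ± 0.11 on the log2 scale (adjusted p = 0.0020). All 9 Il4ra peaks leaned the same way, and 5 of them did not overlap between populations, where 35.4% of all peaks did not. Without the CD45.2 library of mouse 4 the sum differed by 0.39 (adjusted p = 0.023). With total-tag scaling the adjusted p was above 0.05.

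The sum over the 8 Il1r2 peaks was 95.6, 88.0 and 128.8 in CD45.1 and 142.6, 168.7 and 205.3 in CD45.2 cells, and no graft value reached the lowest host value (-0.74 ± 0.19, adjusted p = 0.0015). Leaving out CD45.2 mouse 6 gave an adjusted p of 0.10, and leaving out CD45.2 mouse 4 gave 0.0013. Of these 8 peaks, 3 lay more than 50 kb from the start site, inside introns of the neighbouring gene Map4k4, and with peaks within 50 kb alone the log2 fold difference was -0.44 (adjusted p = 0.27). The promoter peak taken by itself leaned to the graft (0.16). The other 8 genes had an adjusted p of 0.44 or more, and for all genes with a sum 7.35% were higher in CD45.1 and 7.46% in CD45.2.

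After LPS, 4 receptor peaks passed a test between populations. By the study's rule DESeq2 called 0 of the 83 tested (1.78% of all peaks were higher in CD45.1 and 1.19% in CD45.2), with 11 at an unadjusted p under 0.05. edgeR called 1, higher in CD45.1, and had 19 at an unadjusted p under 0.05. Of all 49180 peaks edgeR called 1239 higher in CD45.1 and 880 in CD45.2. The share of all peaks at the unadjusted limit is not given. Past the looser rule, 3 were higher in CD45.1 and 1 in CD45.2, beside 4.08% and 2.38%. Groups did not overlap in 22 peaks (CD45.1 above in 13, CD45.2 above in 9), beside 27.1% of all peaks. The median log2 fold difference was -0.06, beside -0.01 for all peaks, and 66 of 83 differed by less than 2-fold.

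The peak 11.4 kb upstream of Tnfrsf1b had 61.5, 77.0 and 66.0 tags in CD45.1 cells of mice 1, 2 and 3 and 17.5, 27.9 and 27.3 in CD45.2 cells. All graft values were above 2 times the highest host value, and the log2 fold difference was 1.43 ± 0.30 (adjusted p = 0.00021; at most 0.013 without any 1 library). In untreated mice the same site had 14.9, 3.65 and 32.7 tags against 3.28, 0.00 and 3.25, and the difference did not pass DESeq2's test (adjusted p = 0.11), whereas edgeR called it (adjusted p = 0.0030). The sequence, at chr4:144848044-144848219, is shown because this site was both graft-higher and among the most strongly induced by LPS, and its capitals mark a match for AP-1.
Tnfrsf1b, 11.4 kb upstream: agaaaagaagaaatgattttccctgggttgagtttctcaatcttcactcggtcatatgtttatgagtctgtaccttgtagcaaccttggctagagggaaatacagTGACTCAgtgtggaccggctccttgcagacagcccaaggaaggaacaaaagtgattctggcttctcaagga

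The other 3 looser calls after LPS were each lost when certain single libraries were left out. The Il4ra peak 12.8 kb upstream, inside a LINE repeat, had 25.9, 31.3 and 27.4 tags in CD45.1 and 3.50, 6.98 and 13.1 in CD45.2 cells (1.69 ± 0.49, adjusted p = 0.012). The Il6ra peak 8.0 kb downstream, in an intron of this IL-6-binding chain, had 14.6, 7.83 and 16.98 against 3.50, 4.36 and 1.19 (2.25 ± 0.75, adjusted p = 0.045). The peak assigned to Il1r2 61.8 kb upstream, inside a Map4k4 intron, was higher in host cells, with 10.5, 28.7 and 18.9 against 38.5, 45.4 and 41.6 (-1.17 ± 0.38, adjusted p = 0.037). In each, the populations did not overlap. With mouse as a block their adjusted p was 0.051, 0.20 and 0.15, so 1 and 0 looser calls were left in CD45.1 and CD45.2. Leaving out single libraries took it to 0.16, 0.40 and 0.37 at the most (without CD45.2 mouse 2, CD45.2 mouse 3 and CD45.1 mouse 1), with 1 or 2 peaks then higher in CD45.1 and 0 or 1 in CD45.2.

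Of the 10 sites past the looser rule in untreated mice, 8 had a matched LPS peak, and 0 of these passed DESeq2's test after LPS (4 at an unadjusted p under 0.05). edgeR called 3 of them, Ifngr1 43.7 kb upstream, Tnfrsf1b 24.7 kb downstream and Il4ra 11.3 kb upstream (adjusted p = 0.024, 0.031 and 0.037). The Ifngr1 peak 85.8 kb upstream had 20.2, 22.2 and 20.8 tags in CD45.1 and 15.8, 13.96 and 8.31 in CD45.2 cells (0.80 ± 0.47, adjusted p = 0.44). At the Il4ra peak 11.3 kb upstream, graft cells had 11.3, 14.4 and 13.2 and host cells 3.50, 3.49 and 5.94 (adjusted p = 0.19), still apart. Tnfrsf1b 24.7 kb downstream had 25.9, 31.3 and 34.0 against 80.6, 68.0 and 29.7, where only host mouse 3 reached into the graft range (-0.93, adjusted p = 0.11). No gene sum differed, with 0 of 10 at an unadjusted p under 0.05 by DESeq2 and by edgeR, beside 4.08% and 2.98% of all genes past the adjusted threshold. Whether the population difference itself changed with LPS was tested only by the interaction given below.

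To follow LPS itself, peaks of the 2 tables that covered at least 50% of each other were paired, which gave 63 member pairs among 39332, and the 12 libraries were put on 1 scale. The untreated and LPS libraries came from different mice, were merged into different peaks and differed in depth, so treatment, mouse, peak set and depth cannot be told apart. LPS peaks were also wider, with medians of 164 and 142 bp for the members (167 and 132 bp for all peaks).

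The TNF receptor 2, IL-17 receptor and IL-13 receptor loci opened at distal sites in both populations. By adjusted p under 0.05 and over 2-fold, 16 pairs changed in CD45.1 (10 higher after LPS, 6 lower) and 18 in CD45.2 (13 higher, 5 lower). Of all 39178 pairs, 6.76% rose and 4.92% fell in CD45.1, and 7.67% rose and 3.68% fell in CD45.2. All 10 that rose in CD45.1 rose in CD45.2 as well, 3 fell in both, 3 rose and 2 fell past the rule in CD45.2 alone, 3 fell past it in CD45.1 alone, and 42 passed in neither. The 13 that rose belonged to 7 genes. Among the 9 promoters, only that of Il10ra passed. Without the CD45.2 library of untreated mouse 4, 17 pairs changed in CD45.2 (13 higher, 4 lower). Medians over the 63 pairs were 0.11 in CD45.1 and 0.04 in CD45.2, beside 0.00 and -0.01 for all pairs.

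Markers of other cells moved with LPS as well. On the scale of the 12 libraries, sums of 4 monocyte markers were 291 to 379 in untreated and 443 to 623 in LPS libraries of CD45.1 cells, and 211 to 275 and 418 to 549 in CD45.2 cells. Sums of 3 perivascular macrophage markers lay at 183 to 205 before and 265 to 287 after LPS in CD45.1 cells, and at 97.5 to 130 and 159 to 179 in CD45.2 cells. Sums of 8 microglia markers were 1918 to 2063 in untreated and 1420 to 1730 in LPS libraries of CD45.2 cells. In CD45.1 cells they overlapped, at 1103 to 1469 in untreated and 1050 to 1304.5 in LPS libraries. Single markers that rose in both populations were Mmp8 of neutrophils (2.59 and 2.92), Vcan of monocytes (0.95 and 1.01) and Cldn5 of endothelium (1.36 and 0.93). So did Cd2 (1.24 and 1.42) and Klrb1c (0.52 and 0.43) of T and NK cells, and Cd163 of perivascular macrophages (0.77 and 0.70). The other neutrophil markers tested were not called, nor were Ccr2 and Ly6c2 of monocytes. Of T and NK cell markers, Lck (-0.14 and -0.63), Bcl11b (-0.11 and -0.49) and Ncr1 (-0.19 and 2.05) were not called either. F13a1 of monocytes was at 0.22 in CD45.1 and rose by 1.33 in CD45.2. Cd3d of T cells fell in CD45.1 (-0.70, DESeq2 adjusted p = 0.015) and Kdr of endothelium in CD45.2 (-0.72, adjusted p = 4.8e-05). Among microglia markers Tmem119 (-0.97) and Siglech (-0.77) fell in CD45.2 and Slc2a5 (-0.62) in CD45.1. The part of these markers in the changes of the receptor peaks was not tested.

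**Figure D3:**
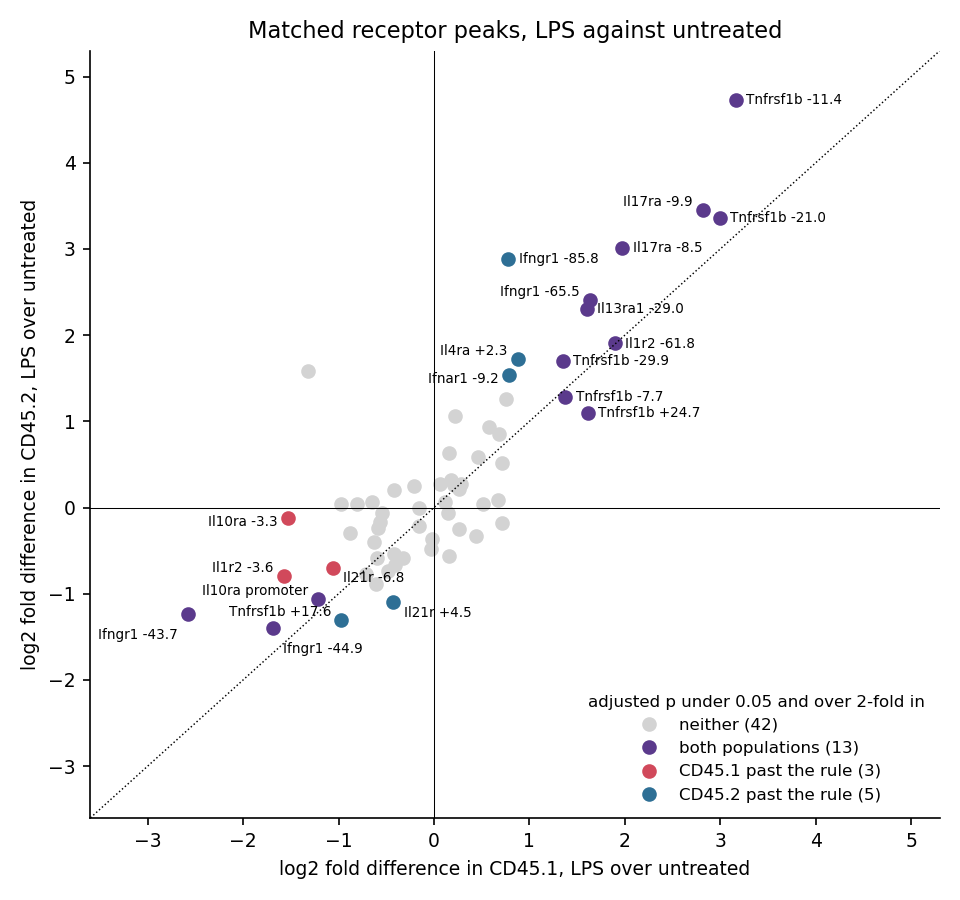
Log2 fold difference of LPS over untreated libraries in CD45.1 (x axis) and CD45.2 cells (y axis) for the 63 matched receptor peaks; the dotted line marks equal change. Coloured points passed adjusted p under 0.05 and over 2-fold in both populations (13, purple), CD45.1 alone (3, red) or CD45.2 alone (5, blue), and their labels give kb from the start site. Points run from Ifngr1 -43.7 at the lower left to Tnfrsf1b -11.4 at the upper right.

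Tnfrsf1b held 5 of the 10 peaks that rose in both populations. Its peak at -21.0 kb, which lies in the region of the neighbouring receptor gene Tnfrsf8, had 21.2, 15.9 and 7.16 normalized tags in untreated CD45.1 libraries and 128.9, 120.5 and 107.7 after LPS. In CD45.2 libraries it went from 6.53, 8.43 and 12.1 to 111.0, 87.2 and 94.6. No LPS library came near the untreated range, and the log2 fold differences were 2.99 ± 0.27 (adjusted p = 5.5e-24) and 3.36 ± 0.31 (adjusted p = 6.9e-24).

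At the Tnfrsf1b peak 11.4 kb upstream, whose sequence is given above, CD45.1 libraries had 9.96, 2.45 and 21.5 tags before and 89.1, 114.7 and 97.9 after LPS. CD45.2 libraries had 2.18, 0.00 and 2.20 before and 25.2, 40.4 and 40.3 after. The site was nearly closed in untreated host cells and open in every LPS library. The log2 fold differences were 3.16 ± 0.66 (adjusted p = 4.8e-05) and 4.73 ± 0.87 (adjusted p = 2.3e-06).

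The Tnfrsf1b peaks 7.7 and 29.9 kb upstream rose by 1.38 and 1.35 in CD45.1 and by 1.29 and 1.70 in CD45.2. Scaled to peak width, the peak 29.9 kb upstream was at 0.96 in CD45.1, under 2-fold. The intronic peak 24.7 kb downstream, higher in host cells of untreated mice, rose by 1.61 and 1.10, and lost its CD45.2 call without CD45.2 LPS mouse 1 (0.86, adjusted p = 0.053) or mouse 2 (0.95, adjusted p = 0.055) and with total-tag scaling. A further intronic peak, 17.6 kb downstream, fell in CD45.2 (-1.30, adjusted p = 0.013), while in CD45.1 its value was -0.97 (adjusted p = 0.11). The CD45.2 call was lost without LPS mouse 1 or 3 or untreated mouse 5 or 6 (adjusted p up to 0.12) and with total-tag or peak-width scaling. The promoter had a mean of 61.4 tags before and 66.3 after LPS in CD45.1 cells. Summed over matched peaks, Tnfrsf1b rose by 1.11 ± 0.11 in CD45.1 and 0.94 ± 0.11 in CD45.2, the most of the 10 genes in both, but 3 of the 9 matched peaks in that sum, at -29.9, -23.4 and -21.0 kb, lie inside Tnfrsf8.

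**Figure D4:**
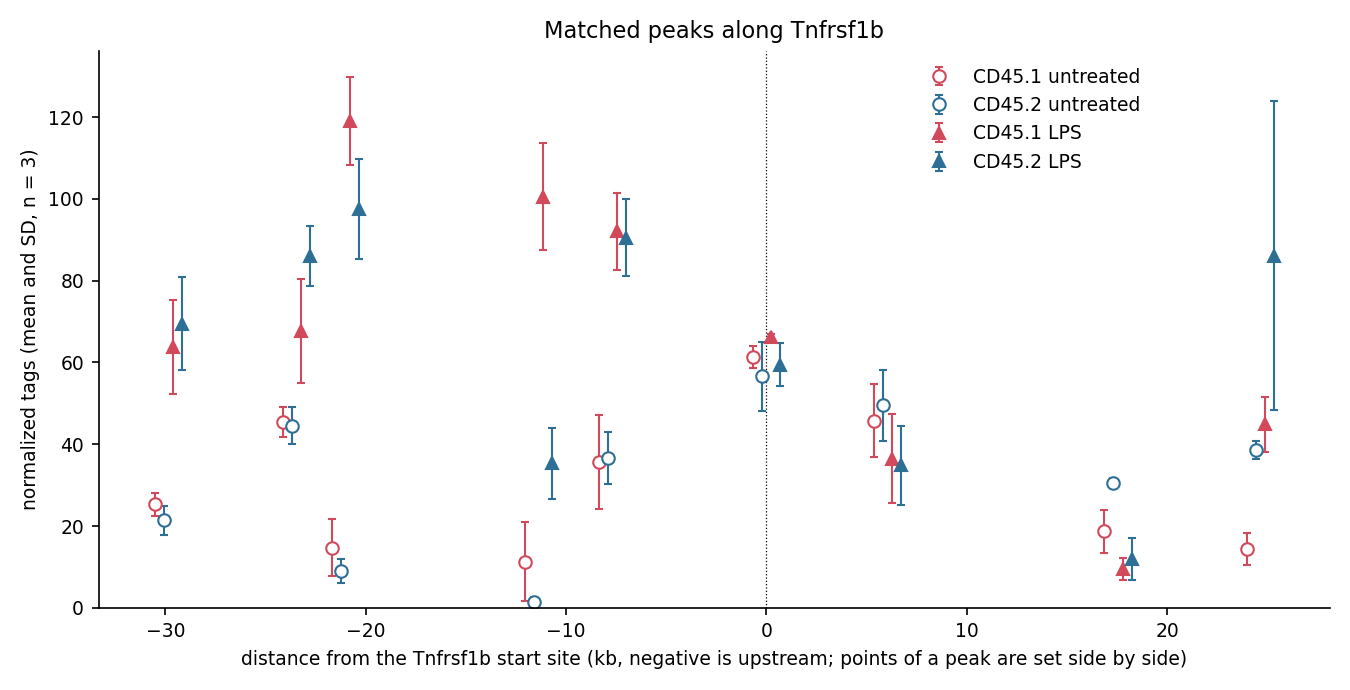
Normalized tags (y axis, mean and SD of 3 libraries) at the 9 matched peaks along Tnfrsf1b by distance from its start site (x axis, kb), in untreated (open circles) and LPS (triangles) libraries of CD45.1 (red) and CD45.2 (blue) cells. The triangles stand far above the circles at -21.0 and -11.4 kb, while the promoter at 0 has similar values in the 4 groups.

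Il17ra encodes the signalling chain shared by several IL-17 receptors. Its peak 9.9 kb upstream had 6.22, 4.28 and 17.9 tags in untreated CD45.1 libraries and 53.9, 58.3 and 82.5 after LPS, and 4.35, 3.16 and 4.39 against 35.3, 43.0 and 47.3 in CD45.2. Its peak 8.5 kb upstream had 19.9, 17.1 and 14.3 against 69.2, 66.1 and 67.2 in CD45.1, and 8.70, 8.96 and 5.49 against 45.4, 49.3 and 82.3 in CD45.2. Neither peak overlapped between treatments. The log2 fold differences were 2.81 and 3.45 for the first peak and 1.97 and 3.02 for the second (largest adjusted p = 4.7e-09). These are adjacent sites, and the gene sum rose by 0.49 ± 0.13 in both populations.

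The Il13ra1 peak 29.0 kb upstream had 29.9, 22.7 and 47.3 tags before and 89.1, 91.4 and 120.3 after LPS in CD45.1 cells, and 21.8, 13.7 and 22.5 before and 136.2, 93.5 and 63.0 after in CD45.2 cells. Each LPS value exceeded each untreated value, with log2 fold differences of 1.60 ± 0.29 (adjusted p = 1.2e-06) and 2.30 ± 0.31 (adjusted p = 9.0e-12). The sum of Il13ra1 rose by 0.92 ± 0.18 and 0.74 ± 0.19. The peak assigned to Il1r2 inside the Map4k4 intron rose by 1.90 in both populations, to 15.2, 42.8 and 28.0 tags from 6.22, 6.12 and 10.03 in CD45.1 and to 55.5, 65.7 and 61.3 from 8.70, 18.97 and 19.2 in CD45.2.

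Ifngr1 moved both ways along its upstream flank. The peak 65.5 kb upstream rose from 21.2, 22.04 and 16.5 tags to 75.0, 58.3 and 51.8 in CD45.1 and from 6.53, 16.9 and 14.8 to 78.2, 89.7 and 51.7 in CD45.2 (1.64 ± 0.30 and 2.41 ± 0.32). The peaks 44.9 and 43.7 kb upstream fell, by 1.69 and 2.57 in CD45.1 and by 1.40 and 1.24 in CD45.2. At the former, the CD45.2 call was lost without LPS mouse 2 (adjusted p = 0.087) or untreated mouse 5 (0.056). At the latter it was lost without LPS mouse 1 (0.087), LPS mouse 3 (0.056), untreated mouse 5 (0.060) or untreated mouse 6 (0.079). The sum of Ifngr1 was at 0.05 and 0.10 and did not pass the test, nor did that of Ifnar1 (0.13 and 0.32).

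Il10ra, the ligand-binding chain for IL-10, was the one member whose promoter fell past the rule of adjusted p under 0.05 and over 2-fold. The peak had 80.3, 63.7 and 67.3 tags in untreated and 32.8, 21.4 and 35.0 in LPS libraries of CD45.1 cells, and 58.7, 63.2 and 57.1 against 20.2, 35.4 and 27.1 in CD45.2 cells. All LPS values were below all untreated values, by -1.21 ± 0.27 (adjusted p = 0.00018) and -1.07 ± 0.27 (adjusted p = 0.0014). Scaled to peak width the values were -0.93 and -0.78, under 2-fold, and without CD45.2 LPS mouse 1 the CD45.2 value was -0.95. The sequence of this promoter, at chr9:45077195-45077345, is printed for that fall. Il10ra is on the minus strand and the letters are of the plus strand, with a match for NF-kappaB (GGANNTTCC, here on the minus strand) in capitals.
Il10ra promoter: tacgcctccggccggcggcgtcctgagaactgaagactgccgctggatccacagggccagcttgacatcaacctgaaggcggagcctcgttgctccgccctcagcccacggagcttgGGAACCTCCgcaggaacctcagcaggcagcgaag

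A second Il10ra peak, 3.3 kb upstream, fell in CD45.1 (-1.53, adjusted p = 0.021) and was at -0.12 in CD45.2. The CD45.1 call was lost without LPS mouse 3 (adjusted p = 0.17) or untreated mouse 4 (0.095). Over matched peaks the Il10ra sum fell by 1.09 ± 0.21 in CD45.1 (adjusted p = 7.2e-06) and was at -0.39 ± 0.20 in CD45.2 (adjusted p = 0.17). The Il6ra sum fell by 0.64 ± 0.19 in CD45.1 (adjusted p = 0.0048) and was at -0.02 in CD45.2. Il4ra had the reverse pattern, at 0.12 in CD45.1 and a rise of 0.56 ± 0.13 in CD45.2 (adjusted p = 0.00028). Il21r fell by 0.33 ± 0.13 and 0.46 ± 0.13. In CD45.1, 3 gene sums rose and 3 fell (15.6% and 11.9% of all genes did), and in CD45.2, 4 rose and 1 fell (10.4% and 4.96%).

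**Figure D5:**
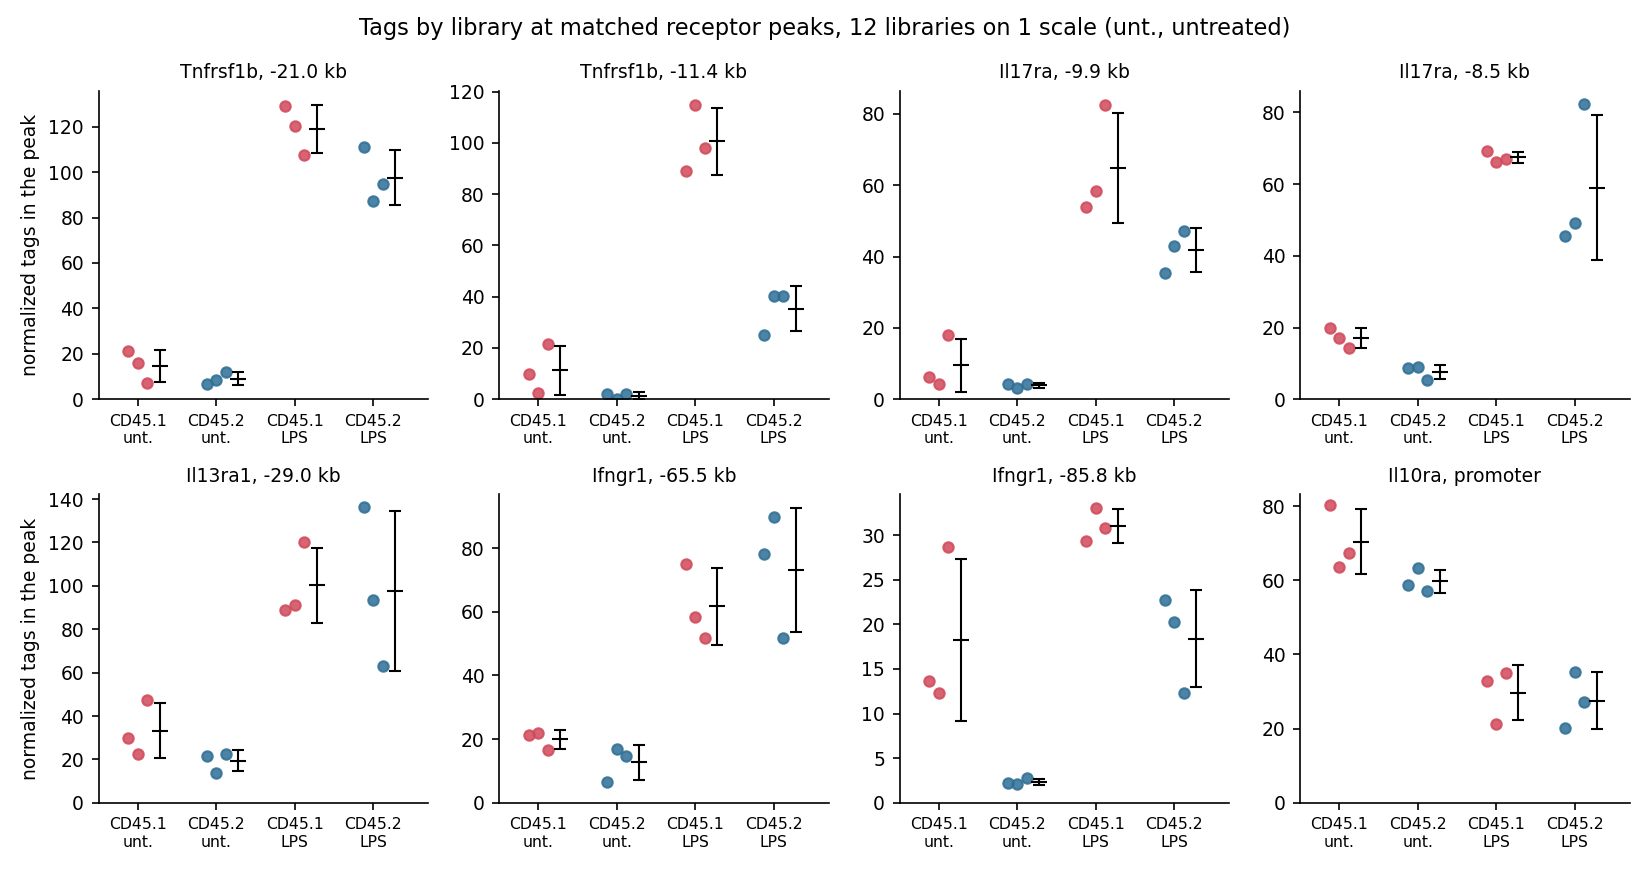
Normalized tags (y axis, from 0) in each of the 12 libraries (points; CD45.1 red, CD45.2 blue) at 8 matched receptor peaks, untreated (unt.) and after LPS, with mean and SD of 3 libraries as black bars. LPS points lie above untreated points of the same population in 7 panels, and below them at the Il10ra promoter.

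The Ifngr1 peak 85.8 kb upstream rose past the rule in host cells alone. It went from 2.18, 2.11 and 2.75 tags to 22.7, 20.2 and 12.3 in CD45.2 cells (2.88 ± 0.59, adjusted p = 2.8e-05) and from 13.7, 12.2 and 28.7 to 29.3, 33.0 and 30.8 in CD45.1 cells (0.78 ± 0.39, adjusted p = 0.15). The host cells thus started near 0 and ended below the graft. The interaction of population and treatment was -2.11 on the log2 scale (unadjusted p = 0.0029), but its adjusted p was 0.29. The Il4ra peak 2.3 kb downstream (0.88 and 1.72) and the Ifnar1 peak 9.2 kb upstream (0.79 and 1.54) also passed in CD45.2 alone. The call of the latter was lost without CD45.2 LPS mouse 3 (adjusted p = 0.24), untreated mouse 5 (0.086) or untreated mouse 6 (0.14). Its sequence, at chr16:91476161-91476278, is shown because the site lies within a long terminal repeat of the ERVK class (RLTR16), with matches for AP-1 and CEBP (TTGCNNAA) in capitals.
Ifnar1, 9.2 kb upstream: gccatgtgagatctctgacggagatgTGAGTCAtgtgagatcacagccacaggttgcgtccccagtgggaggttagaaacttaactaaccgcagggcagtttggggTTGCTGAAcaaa

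No member passed the test for an LPS response that differed between populations. By DESeq2, 0 of the 63 pairs had an interaction past an adjusted p of 0.05 (0.245% of all pairs did), with 8 at an unadjusted p under 0.05, 12 without an adjusted p and a smallest adjusted p of 0.29. edgeR found 0, with 11 at an unadjusted p under 0.05. Of the gene sums 0 of 10 passed in both tools (0.184% of all genes), with 3 at an unadjusted p under 0.05 in each. A pair past the rule in 1 population alone is therefore not shown to differ between them.

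The number of pairs that fell was the least stable. In CD45.1 it was 3 without LPS mouse 3. In CD45.2 it was 3 without LPS mouse 1 or untreated mouse 6, and 2 without LPS mouse 3 or untreated mouse 5. The falls not given above were the Il21r peak 6.8 kb upstream in CD45.1 (-1.06, adjusted p = 0.035), the Il1r2 peak 3.6 kb upstream in CD45.1 (-1.57, adjusted p = 0.044) and the Il21r peak 4.5 kb downstream in CD45.2 (-1.10, adjusted p = 0.0091). Their adjusted p rose to 0.12, 0.32 and 0.086 without CD45.1 LPS mouse 2, CD45.1 LPS mouse 3 and CD45.2 LPS mouse 3, and without CD45.2 untreated mouse 4 the last was at -0.99, under 2-fold. Numbers that rose stayed between 10 and 12 in CD45.1 and between 12 and 14 in CD45.2 without any 1 library.

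Letters of the peaks were searched for 7 motifs of factors that act in macrophages or downstream of these receptors, in 200 bases around each centre and on both strands. In untreated mice, PU.1 (GAGGAAG) was in 27.8% of member peaks and 21.8% of all peaks, RUNX in 10.3% and 5.65%, IRF (GAAANNGAA) in 13.4% and 8.34%, AP-1 in 10.3% and 8.11% and CEBP in 9.28% and 9.82%. STAT (TTCNNGGAA) and NF-kappaB were in 4.12% each, beside 2.92% and 3.21%. In LPS peaks RUNX was in 14.9% of members and 5.82% of all, and AP-1 in 17.2% and 13.4%. PU.1 was in 26.4% and 20.1% of them, IRF in 12.6% and 7.54%, and CEBP in 14.9% and 12.2%. STAT and NF-kappaB were in 5.75% of members each, beside 3.25% and 3.51% of all LPS peaks. Of the 13 member peaks that rose after LPS, 4 held AP-1, 3 PU.1, 2 RUNX and 1 each IRF and CEBP, and 0 held STAT or NF-kappaB. These are matches of letters alone, and their absence says nothing of a factor.

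Other genes of these pathways were read from gene sums. By DESeq2, 7.35% of all genes were higher in CD45.1 and 7.46% in CD45.2 in untreated mice, and 4.08% and 2.98% after LPS. Of the 9 partner chains tested in untreated mice, such as Il10rb, Il6st and Ifngr2, 0 passed the test in DESeq2 (0 at an unadjusted p under 0.05) or edgeR (2). After LPS Il1r1, the signalling IL-1 receptor, was higher in CD45.1 (0.70) and Ifngr2 in CD45.2 (-0.70). Of other cytokine receptors, 3 were higher and 3 lower in CD45.1 of 27 tested in untreated mice, and 5 higher and 0 lower of 28 after LPS, with Il5ra at 1.36, Il7r at 1.02, Il17rd at 0.99, Il31ra at 0.88 and Crlf2 at 0.62. Of 12 ligands and antagonists, 2 were higher in untreated CD45.1 cells, Il4 (2.94, from a single peak) and Il1rn, the IL-1 receptor antagonist (1.01), and 2 were lower after LPS, Il1a (-0.71) and Lta (-0.79). Of kinases, STATs and adaptors, 1 of 21 was higher, Irs2 (0.63), and 0 of 20 passed after LPS in DESeq2 (1 at an unadjusted p under 0.05) or edgeR (2). Medians of the 4 lists lay between -0.09 and 0.02 in untreated mice and between -0.09 and 0.08 after LPS, beside 0.00 and -0.01 for all genes.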

How the data were processed

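ATAC-seq libraries of CD45.1 and CD45.2 brain macrophages from 6 mice were analysed. Per the study's methods and the submitters' processing notes, reads were demultiplexed with bcl2fastq 2.17.1.14 and aligned to mm9 with Bowtie2, Picard 1.108 was used, and HOMER called peaks in each library; any shift of read ends is not given in the sources used here. The authors merged the 6 peak lists of a treatment, annotated each merged peak to the nearest start site and counted tags per library. The deposited values are unnormalized tags in steps of 0.5, taken as estimated counts (expected counts) and rounded. The deposited score of each library's own peaks, a tag number, was not tested, and those lists served only to count in how many libraries a peak was called. Genome letters came from NCBIM37, the same build, with GENCODE vM1 genes. No column was left without a sample.

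Each table was fitted whole with DESeq2 1.42.0 (Wald test, median-ratio size factors, R 4.3.3), CD45.1 against CD45.2, after keeping peaks with over 10 tags in at least 1 library, and Benjamini-Hochberg adjustment ran over all peaks. Gene sums added all peaks of a gene, and in comparisons of the treatments only its matched peaks. Matched peaks (50% reciprocal overlap) were fitted in 1 model of population, treatment and their interaction. Replicates are single mice. edgeR 4.0.16, total-tag scaling, other filters, mouse as a block, leaving out each library and, chosen after the data were seen, scaling to peak width were alternatives. The peak tests between populations, by DESeq2 and by edgeR in each table, were tried on simulated data. The gene sums, the model of matched peaks and the other alternatives were not. Tag numbers without molecular identifiers carry counting error that limits low peaks most.

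Both populations of a mouse came from the same animal per the series' design, so mouse pairs the samples. Deviations from group means correlated at 0.15, 0.057 and 0.067 within untreated mice (35405 peaks) and at -0.23, 0.062 and 0.059 within LPS mice (19530 peaks).

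The members, gene lists, rules and tests were chosen with earlier results of these data known. Named peaks are those past the study's rule, the promoters, the strongest peak of a table and matched peaks past the LPS rule (at most 4 per gene and direction by adjusted p, others named after their values were seen).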

Additional observations from a re-analysis of the deposited data

How the results depend on the processing

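Counts of member peaks past a threshold moved more than the direction of any peak. In untreated mice the study's rule gave 3 peaks, 5 with edgeR, 0 with a mean count of at least 20 (62 peaks tested) and 1 to 4 without any 1 library. Looser calls higher in CD45.1 went from 6 to 11 with edgeR, 1 with the mean filter and 3 to 6 without a library. Those higher in CD45.2 went from 4 to 9 with edgeR, 1 with total tags, 1 with mouse as a replicate block and 1 to 3 without a library. Gene sums past the test went from 2 to 0 with total tags, 0 with promoter peaks, 1 with peaks within 50 kb and 1 to 2 without a library, and Il1r2 reversed to 0.16 from promoter peaks. After LPS the study's rule went from 0 to 1 with edgeR. Looser calls higher in CD45.1 went from 3 to 5 with edgeR, 1 with the mean filter, 1 with the block and 1 to 2 without a library, and those higher in CD45.2 from 1 to 4 with edgeR, 0 with total tags, 0 with the block and 0 to 1 without a library. For LPS against untreated, an 80% overlap left 21 pairs, with 7 changed in CD45.1 (4 higher, 3 lower) and 7 in CD45.2 (5 higher, 2 lower). Total tags gave 3 lower in CD45.1 and 3 in CD45.2, and without a library there were 3 to 6 and 2 to 5 lower. Total tags also moved the median of all LPS peaks between populations from -0.01 to 0.14, and that of LPS over untreated in CD45.2 from -0.01 to -0.15. The cause of these shifts was not tested. Other values for these counts stayed within 1.5 times the first (196 of 245), and of 798 values for single peaks and genes, 680 kept direction and call, 117 kept direction alone and 1 reversed. With the block 2 member peaks passed the study's rule in untreated mice, and the looser calls higher in CD45.1 included a peak not called without it. The gene sums of Il4ra and Il1r2 still passed, and no LPS gene sum and no interaction did. With 2966364 to 6556595 tags, LPS libraries limit peaks of few tags most.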

Other observations

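Receptor genes beyond the 10 were followed over matched peaks as well. Il3ra, the IL-3-binding chain, rose by 1.11 ± 0.17 in CD45.1 and 1.12 ± 0.18 in CD45.2 cells (DESeq2 adjusted p = 1.2e-08 and 5.2e-08). Il31ra (1.06 and 1.84), Il15ra (0.87 and 0.64) and Crlf2, the receptor for thymic stromal lymphopoietin (0.70 and 0.49), rose in both. Of 26 other cytokine receptors tested, 6 rose and 0 fell in CD45.1, and 5 rose and 4 fell in CD45.2, where 15.6% of all genes rose and 11.9% fell in CD45.1, and 10.4% rose and 4.96% fell in CD45.2.

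Il7r, the IL-7-binding chain, was the 1 gene of these lists with an interaction past the test (1.25 ± 0.32, adjusted p = 0.049). It rose by 1.27 ± 0.22 in CD45.1 cells (adjusted p = 3.4e-07) and was at 0.02 ± 0.24 in CD45.2 cells (adjusted p = 0.97). The interaction call was lost with edgeR, with total tags, with mouse as a block and in at least 7 of the 12 fits without 1 library, where 0 genes had a positive interaction past the test. Of the partner chains, Il1r1 rose in both populations (0.84 and 0.54), and Il10rb was at 0.32 in CD45.1 (adjusted p = 0.21) and rose by 0.95 in CD45.2. Ifngr2 and Ifnar2 fell in CD45.1 (-0.63 and -0.60) and were at -0.21 and -0.36 in CD45.2 (adjusted p = 0.37 and 0.12). Of the downstream genes, Jak2 (0.70 and 0.67) and Birc3 (0.65 and 0.61) rose in both, and Stat6, which relays IL-4 and IL-13, fell in both (-0.49 and -0.44). Il1rn rose by 0.86 and 1.65 and Il1a by 0.46 and 0.92, whereas Il1b fell in CD45.1 (-0.66) and was at -0.38 in CD45.2 (adjusted p = 0.13). These genes were named after their values were seen.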
